A study of Mus musculus with 59 samples.

Results

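Nefl, Nefm, Nefh, Ina and Prph encode the intermediate filament proteins of mature neurons, and all 5 were found among the 24346 gene symbols of a table of FPKM (fragments scaled to transcript length and library size) from the mouse ventral tegmental area. The genes were chosen by symbol as a family, from a reading of earlier results on these same libraries. Their levels are therefore given as a description, and the adjusted p-values, which were computed over all genes tested, are not independent evidence for this choice of genes.

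Neurofilaments are the main cytoskeletal filaments of large axons. The light subunit, made by Nefl, is needed for the filament to assemble. The medium and heavy subunits, made by Nefm and Nefh, carry long tails that are heavily phosphorylated and project from the filament, and alpha-internexin, made by Ina, joins them in the central nervous system. Peripherin, made by Prph, is a related protein known from neurons that send axons out of the brain and spinal cord and from some central neurons. Neurofilament content is known to set axon calibre, so large, fast-conducting neurons hold much of it.

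Total RNA was sequenced from the ventral tegmental area, a midbrain region rich in dopamine neurons that project to the forebrain, in male mice. Cocaine was given in 4 paradigms, each with its own saline group, and 59 libraries fell into 8 groups. Acute injection in the home cage had 5 cocaine and 6 saline libraries, and chronic injection in the home cage had 6 cocaine and 6 saline libraries. Conditioning had 6 cocaine and 6 saline libraries, and intravenous self-administration had 15 cocaine and 9 saline libraries. The acute, chronic and conditioning libraries, 35 in all, are called injected here to set them apart from the 24 of self-administration. The labels give no strain, age, dose, number of sessions or time of tissue collection, and do not say that libraries came from separate animals, so p-values measure the spread between these libraries, which may be technical.

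Read depth is unknown for FPKM, so no counting interval was computed. Per library, FPKM summed to between 398577 and 457508, and no 2 libraries were identical. A first principal component with 37.9% of the variance set every self-administration library apart from every injected one, with scores up to -12.6 in self-administration and from 6.93 elsewhere. Paradigm and any batch cannot be told apart there. Th, the rate-limiting enzyme of dopamine synthesis, was present in every library, from 124.3 to 691.1 FPKM, while Chat, the enzyme that makes acetylcholine, was below 1 FPKM in each of the libraries singled out here.

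The family is built on a shared central rod, and the end of that rod is known to be strongly conserved among its members. The coding stretch of 42 bases that holds this end is printed for all 5 genes to show how far the copies differ even there. Sequences were read 5′ to 3′ on the coding strand from the GENCODE M21 transcripts of GRCm38, and capitals mark bases that differ from Nefl.
Nefl: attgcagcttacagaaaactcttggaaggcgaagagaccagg
Nefm: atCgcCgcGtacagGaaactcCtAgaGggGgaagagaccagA
Nefh: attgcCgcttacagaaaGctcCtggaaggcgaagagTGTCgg
Ina: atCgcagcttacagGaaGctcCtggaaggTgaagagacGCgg
Prph: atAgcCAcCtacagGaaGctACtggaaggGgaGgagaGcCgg

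Nefh and Ina each differed from Nefl at 7 of these 42 bases, Nefm at 9 and Prph at 12. An exon junction fell after base 14 of the stretch in Nefl, Nefm, Nefh and Ina, and after base 41 in Prph, so each stretch spans an intron: chr14:68086085-68086514 (+) for Nefl, chr14:68121357-68122834 (-) for Nefm, chr11:4941388-4943864 (-) for Nefh, chr19:47021944-47023362 (+) for Ina and chr15:99057438-99057568 (+) for Prph. Over whole transcripts, the longest run of identical bases between any pair was 35, between Nefm and Prph. The other pairs shared runs of 13 to 23 bases.

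Nefl and Nefm are neighbours on chromosome 14. In GENCODE M21, Nefl lies at chr14:68083863-68089095 on the plus strand with 4 exons, and Nefm at chr14:68082590-68124846 on the minus strand. The Nefm transcript with 3 exons spans 68119283 to 68124846 and shares 0 exonic bases with Nefl. A second annotated Nefm transcript, with 4 exons, runs across Nefl on the opposite strand and shares 1108 exonic bases with it. The labels do not say whether the libraries kept strand, and the annotation the authors used is not given in the sources used here, so reads of the 2 genes cannot be told apart where such a transcript was counted. Nefh lies at chr11:4938754-4948064 on the minus strand with 4 exons, Ina at chr19:47014698-47025327 on the plus strand with 3, and Prph at chr15:99055174-99058978 on the plus strand with 8. The predicted proteins have 543 residues for Nefl, 848 for Nefm, 1090 for Nefh, 501 for Ina and 507 for Prph.

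Promoter sequence was matched by symbol for 2 of the 5 genes, Ina and Prph, in RefSeq tables of GRCm38.p6. The 250 bases before each start are shown because the pair behaved differently across libraries, as described further on. Capitals mark the letters TATAAA, which is the core of a TATA box, and GGGCGG, which is a GC box, searched on both strands, so that CCGCCC is GGGCGG read on the other strand.
Ina, chr19:47014431-47014680 (+): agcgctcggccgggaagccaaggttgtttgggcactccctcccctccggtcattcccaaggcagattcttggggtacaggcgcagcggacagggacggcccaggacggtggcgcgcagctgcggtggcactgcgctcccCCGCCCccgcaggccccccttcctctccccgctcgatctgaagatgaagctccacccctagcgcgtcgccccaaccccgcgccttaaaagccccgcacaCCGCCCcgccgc
Prph, chr15:99054924-99055173 (+): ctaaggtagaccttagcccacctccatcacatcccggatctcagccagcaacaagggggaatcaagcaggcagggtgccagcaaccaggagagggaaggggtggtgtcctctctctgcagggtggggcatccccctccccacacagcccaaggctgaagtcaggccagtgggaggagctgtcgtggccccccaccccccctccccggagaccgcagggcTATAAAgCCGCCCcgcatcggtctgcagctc

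Prph held TATAAA once, 31 bases before its start, and GGGCGG once. Ina held GGGCGG at 2 places and TATAAA at 0. Among 32851 windows of the same length, 12.4% held TATAAA and 32.7% held GGGCGG. These matches describe letters in the window and nothing about a factor.

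Nefl had the highest mean FPKM, a level per transcript length, of the 5 genes in every group. Its group means ran from 182.7 ± 47.7 FPKM in self-administration saline (SD, n = 9) to 692.8 ± 239.8 FPKM in chronic cocaine (n = 6). Nefm ran from 83.5 ± 26.1 to 199.4 ± 58.7 FPKM, with its highest mean in conditioning cocaine (n = 6). Nefh ran from 48.2 ± 12.5 to 138.5 ± 51.9 FPKM, and Ina from 94.8 ± 11.9 to 153.2 ± 23.2 FPKM, both with the highest mean in chronic cocaine. Prph was rare, from 1.22 ± 0.93 to 2.75 ± 1.74 FPKM, again highest in chronic cocaine.

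All 5 genes had their lowest mean in self-administration saline and their next lowest in self-administration cocaine. For Nefl the order from high to low was chronic cocaine, conditioning cocaine, chronic saline, acute cocaine, conditioning saline, acute saline, self-administration cocaine and self-administration saline. Neighbours in this order lay closer together than the larger SD of the pair, except at the step between self-administration cocaine, 261 ± 114.7 FPKM (n = 15), and acute saline, 459.1 ± 137.7 FPKM (n = 6). Ina had the same exception, with 109.2 ± 20.5 FPKM in self-administration cocaine and 135.9 ± 9.69 FPKM in acute saline. Nefm, Nefh and Prph had no step between neighbours larger than the SD.

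**Figure D1:**
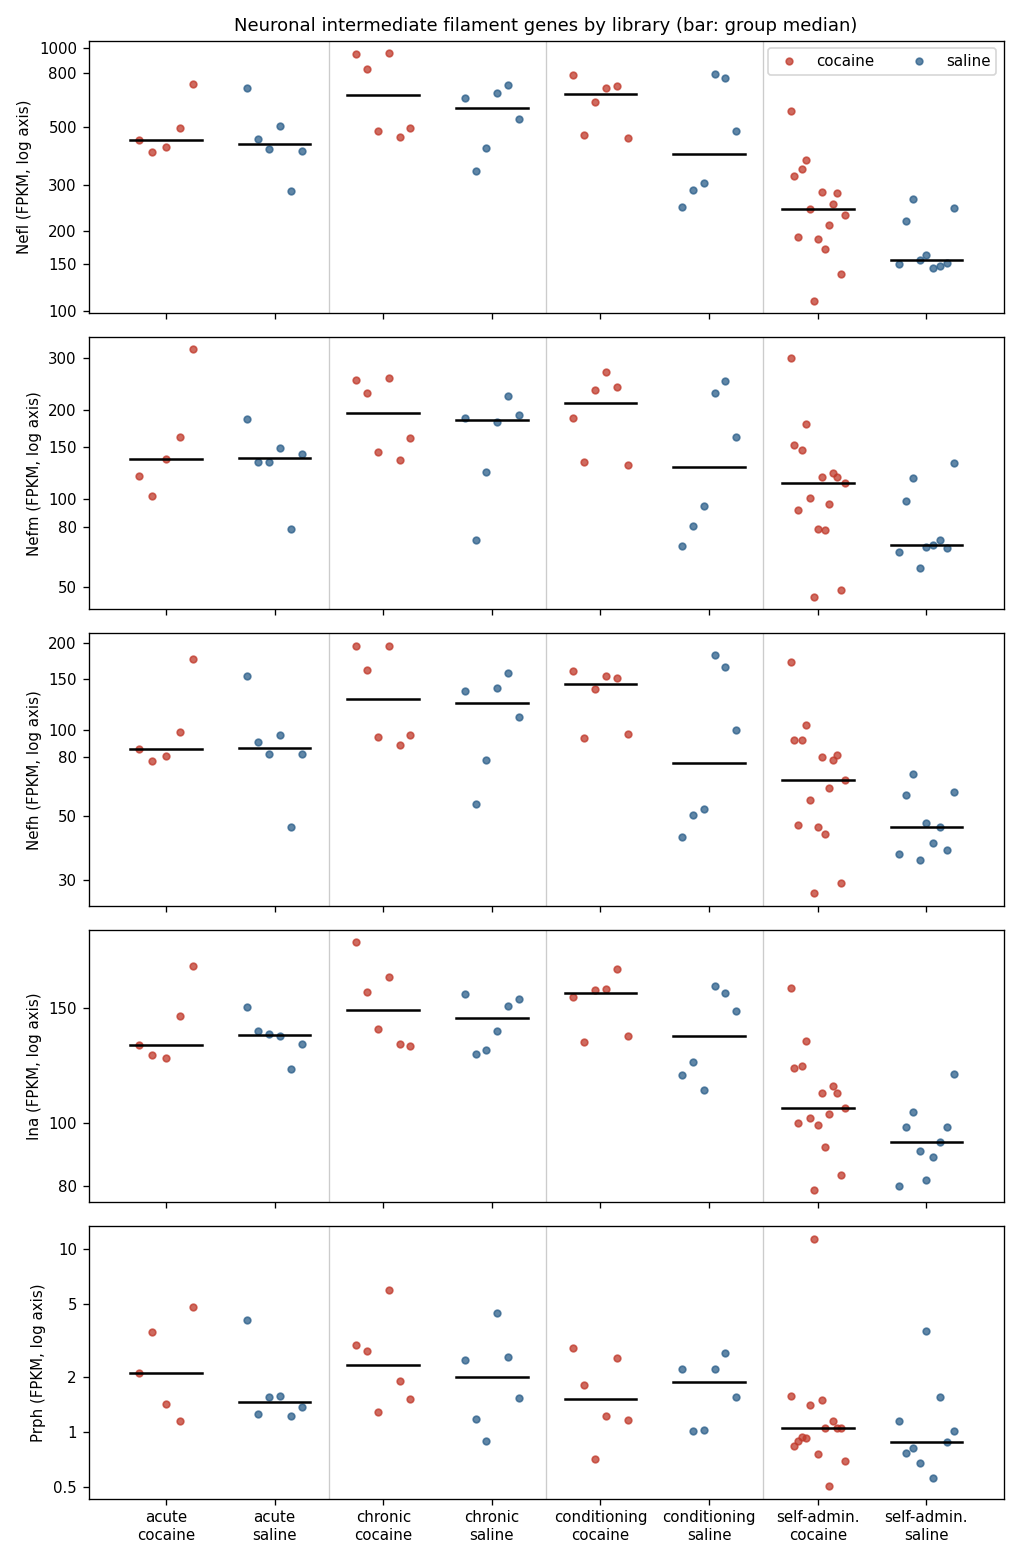
FPKM on a log axis of each neuronal intermediate filament gene, one point per library, cocaine (red) left of saline (blue) in each paradigm, with the group median as a bar. Nefl, Nefm, Nefh and Ina sit lower in both self-administration groups than in the injected groups by their medians, and cocaine and saline overlap in every paradigm.

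Cocaine libraries overlapped saline libraries for all 5 genes in all 4 paradigms, and none of the 5 differed between cocaine and saline past the adjusted threshold of 0.05 in any of them. In the fits of a single paradigm 0% of all genes tested were called in acute, chronic, conditioning or self-administration (13164, 13190, 13135 and 13130 genes). Differences are given as log2(FPKM + 1) in cocaine minus that in saline, ± the standard error (SE). The added 1 FPKM shrinks the change of a rare gene such as Prph. With bulk RNA, fewer cells of a type and less RNA per cell cannot be told apart in any of these values.

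After acute injection, Nefl was at 399.9, 417, 444.1, 494.8 and 723.8 FPKM in the cocaine libraries. Saline libraries ran from 285.1 to 698.6 with a median of 431 FPKM. A single cocaine library, number 4 in the deposited columns, stood above all saline libraries, and the others lay within the saline range. The log2 difference was 0.13 ± 0.22 (limma adjusted p = 0.985). Nefm differed by 0.21 ± 0.30, Nefh by 0.19 ± 0.30, Ina by 0.04 ± 0.08 and Prph by 0.31 ± 0.29, each with the same adjusted p.

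Acute cocaine library 4 decided the sign of the values of Nefl, Nefm, Nefh and Ina. It held the highest level of its group for all 5 genes, with 322.2 FPKM of Nefm against 101.9 to 162.8 in the other 4, and 176 FPKM of Nefh against 77.8 to 98.1. It was also highest in its group for Pvalb, a calcium-binding protein of fast-firing neurons, at 291.8 against 101.1 to 142.1 FPKM, and for Spp1, the secreted protein osteopontin, at 110.3 against 41.6 to 48.9 FPKM. Its Th, 124.3 FPKM, was the lowest of the group, where the others held 205.4 to 502.8. Without it the difference of Nefl was -0.017, that of Nefm -0.05, that of Nefh -0.017 and that of Ina -0.035, and that of Prph was 0.109. The part of this library's cell makeup in the acute values was not tested.

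After chronic injection, Nefl ran from 458.6 to 953.2 with a median of 660.6 FPKM in cocaine libraries, against 339.8 to 719.1 with a median of 589.2 FPKM in saline libraries. In the cocaine group 3 of 6 libraries lay above all saline libraries and the other 3 at or below the saline median, so that the group fell into a high and a low set. The same 3 of 6 count held for Nefm, Nefh and Ina. The difference was 0.30 ± 0.26 for Nefl (adjusted p = 0.848 by limma), 0.30 ± 0.29 for Nefm, 0.29 ± 0.31 for Nefh, 0.09 ± 0.09 for Ina and 0.22 ± 0.31 for Prph. Single libraries moved these values: without chronic saline 1 they were 0.168 for Nefl, 0.086 for Nefm and 0.107 for Nefh, without chronic cocaine 0 that of Ina was 0.023, and without chronic cocaine 3 that of Prph was 0.016.

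In conditioning, Nefl ran from 453.8 to 785.2 with a median of 663.3 FPKM in cocaine libraries, against 248.4 to 795.8 with a median of 394.1 FPKM in saline libraries. All 6 cocaine libraries lay above the saline median, but none above the highest saline library. The saline group was wide, with a coefficient of variation of 51.1% against 22.1% in cocaine. Saline libraries 0, 1 and 2 held 248.4, 288.2 and 306.5 FPKM of Nefl, and libraries 3, 4 and 5 held 795.8, 766.3 and 481.8. The saline median fell in the gap between these sets. Libraries 0, 1 and 2 were also the lowest of the saline group for Nefm, Nefh and Ina. The log2 difference was 0.50 ± 0.32 for Nefl (adjusted p = 0.682, limma), 0.55 ± 0.36 for Nefm, 0.62 ± 0.39 for Nefh and 0.16 ± 0.10 for Ina. Prph stood at -0.05 ± 0.22 (adjusted p = 0.962). Leaving out 1 library, the difference ran from 0.342 to 0.677 for Nefl and from 0.369 to 0.738 for Nefm. For Nefh it ran from 0.428 to 0.843, and for Ina from 0.11 to 0.215.

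In self-administration, Nefl ran from 109.2 to 575.2 with a median of 243.2 FPKM in cocaine libraries, against 144.9 to 266.6 with a median of 155.3 FPKM in saline libraries. Of the 15 cocaine libraries, 13 lay above the saline median, 6 above the highest saline library and 2 below the lowest. Nefm gave 13 above the saline median, 4 above its highest and 2 below its lowest library, and Nefh gave 11, 7 and 2. The differences were 0.44 ± 0.21 for Nefl (unadjusted p = 0.0455, limma adjusted p = 0.999), 0.42 ± 0.24 for Nefm, 0.45 ± 0.24 for Nefh and 0.19 ± 0.09 for Ina. Only Nefl of the 5 was at an unadjusted p under 0.05 on the higher side, where 1.61% of all genes tested were.

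Over all 4 paradigms, a fit let each paradigm have its own level and estimated a single difference shared by them. Paradigms with more libraries weigh more in this average, and self-administration weighs most. The average difference between cocaine and saline was 0.36 ± 0.13 for Nefl, 0.38 ± 0.15 for Nefm, 0.40 ± 0.15 for Nefh and 0.13 ± 0.05 for Ina. Their unadjusted p-values were 0.00639, 0.0121, 0.0105 and 0.0105, and their limma adjusted p-values 0.249, 0.275, 0.272 and 0.272 over 13186 genes, so none passed. Prph had 0.13 ± 0.14 (adjusted p = 0.723), and 0.067 without self-administration cocaine library 6. At an unadjusted p under 0.05 on the higher side, 4 of the 5 genes and 6.47% of all genes were found, and 0.00758% of all genes passed the adjusted threshold in either direction. The 4 genes were strongly correlated across libraries, so they do not count as 4 separate observations.

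Ranked with their sign from lowest to highest, these average differences stood at the 99.8 percentile of all genes for Nefl, 99.9 for Nefm and Nefh and 98.0 for Ina and Prph. Their spread between libraries was also among the widest. Within groups the SD of log2(FPKM + 1) was 0.486 for Nefl, 0.566 for Nefm, 0.597 for Nefh and 0.511 for Prph over the injected libraries, at the 98.3 to 98.7 percentile of 13173 genes with a median of 0.111. Ina was steadier, with 0.175, at the 83.0 percentile. In self-administration the SDs were 0.520, 0.594, 0.594 and 0.635 for Nefl, Nefm, Nefh and Prph and 0.231 for Ina, where the median gene had 0.162.

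**Figure D2:**
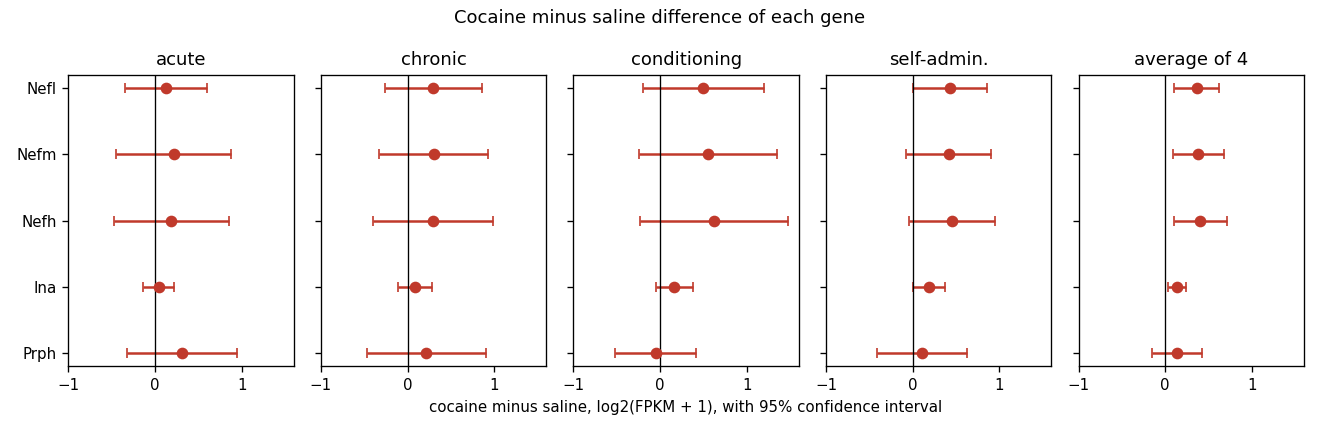
Cocaine minus saline in log2(FPKM + 1) for each gene in the 4 paradigms and averaged over them, with 95% confidence intervals from limma. Paradigms with more libraries weigh more in the average. In single paradigms the intervals cross 0 except that of Nefl in self-administration (0.01 to 0.86), and in the average those of Nefl, Nefm, Nefh and Ina lie above 0 before adjustment over all genes.

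The cocaine effect did not differ between paradigms past the adjusted threshold for any of the 5 genes. All 6 differences between paradigms called 0% of 13186 genes. The widest of them for Nefl, conditioning minus acute, was 0.37 with a 95% interval from -0.45 to 1.20, and that of Nefh was 0.43 from -0.56 to 1.42. These intervals leave room for sizeable differences in either direction.

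Among saline groups, self-administration stood apart. Nefl had 144.9 to 266.6 with a median of 155.3 FPKM in self-administration saline libraries, against medians of 431, 589.2 and 394.1 FPKM in acute, chronic and conditioning saline libraries. The highest self-administration library lay above the lowest conditioning library, 248.4 FPKM, but below every acute and chronic saline library, which began at 285.1 and 339.8 FPKM. Self-administration saline minus the mean of the other saline groups was -1.39 ± 0.19 for Nefl (limma adjusted p = 1.43e-06), -0.78 ± 0.22 for Nefm (0.00427), -0.95 ± 0.24 for Nefh (0.00173) and -0.55 ± 0.07 for Ina (6.28e-08). Prph, at -0.41 ± 0.18, missed the threshold (adjusted p = 0.0529).

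That contrast called much of the transcriptome, 59.6% of 13202 genes in either direction and 27.8% on the lower side, against 4 of the 5 genes here. A moderated F test over the 4 saline groups likewise called 4 of the 5 and 48.9% of all genes, and 3 of the 5 in 9 of the fits that left out 1 chronic or self-administration saline library. Conditioning saline against home-cage saline called none of the 5 and 0.0303% of all genes, and chronic against acute saline called none of the 5 and 0% of all genes. Since paradigm and batch cannot be told apart for self-administration, the lower filament levels describe those libraries.

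Lists of cell type markers held called genes in the same contrast, where 27.8% of all genes passed on the lower side and 59.6% in either direction. A count near those shares says nothing particular about a list. Of 10 oligodendrocyte and myelin genes 8 passed on the lower side and 0 on the higher (median -0.464, against 0.02 for all genes), and of 8 microglia genes 6 passed on the lower side and 0 on the higher. Of 8 astrocyte genes 4 passed on the higher side and 2 on the lower (median 0.216). Of 12 dopamine neuron genes 4 passed on the lower side and 0 on the higher (median -0.171), and of 6 GABA neuron genes 4 on the lower side and 2 on the higher (median -0.341). Of 9 genes of most neurons 4 passed on the lower side and 1 on the higher (median -0.091). Of 9 genes of large, fast-firing neurons 5 passed on the lower side and 1 on the higher (median -0.419). Among the lower ones were Hcn2, a pacemaker channel, at -0.92 ± 0.09, Kcnc1, a fast potassium channel, at -0.56 ± 0.07 and Pvalb at -0.65 ± 0.23. Slc17a6, of the same list, had a higher mean in self-administration saline, 128.3 FPKM, against 111.6, 106.5 and 114.1 in acute, chronic and conditioning saline. The means of Kcna1 and Vamp1 there lay within the range of the other saline groups. Summed, the fast-firing list reached 635 to 1016 FPKM in self-administration saline, against 666.4 to 1048, 784 to 1178 and 632.7 to 1219 FPKM in acute, chronic and conditioning saline, and none of its 9 genes was at 0 in any library. The part of these shifts in the filament values was not tested.

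The proportions of the subunits also differed between the self-administration and the injected libraries. Nefm stood at 45.1% ± 4.2 of the Nefl level in self-administration libraries (SD, n = 24) and 30.4% ± 4.4 in injected libraries (n = 35). Nefh stood at 26.7% ± 2.7 of Nefl in self-administration and 20.05% ± 1.8 in injected libraries. Ina stood at 48.8% ± 10.9 of Nefl in self-administration and 28.2% ± 7.1 in injected libraries. In saline libraries alone, Nefm ran from 37.5% to 53.7% of Nefl in self-administration and from 21.3% to 36.3% in the injected groups, with no overlap. For Nefh the saline ranges were 22.6% to 31.0% in self-administration and 16.1% to 22.8% in the injected groups, and overlapped slightly. The differences in these ratios were not tested.

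The injected libraries differed among themselves in these proportions, from 17.6% to 47.7% of Nefl for Ina and from 21.3% to 44.5% for Nefm. Nefh ran from 16.1% to 24.3% there. It stood at 19.2% to 20.8% of Nefl in the 6 chronic cocaine libraries and at 20.1% to 22.2% in the 6 conditioning cocaine libraries, although Nefl itself ranged 2.08-fold in the first group and 1.73-fold in the other. Cocaine and saline groups overlapped in every ratio in every paradigm. In acute cocaine library 4 the proportions were shifted, with Nefm at 44.5% of Nefl, the highest of all injected libraries, and Nefh at 24.3%, likewise the highest.

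**Figure D3:**
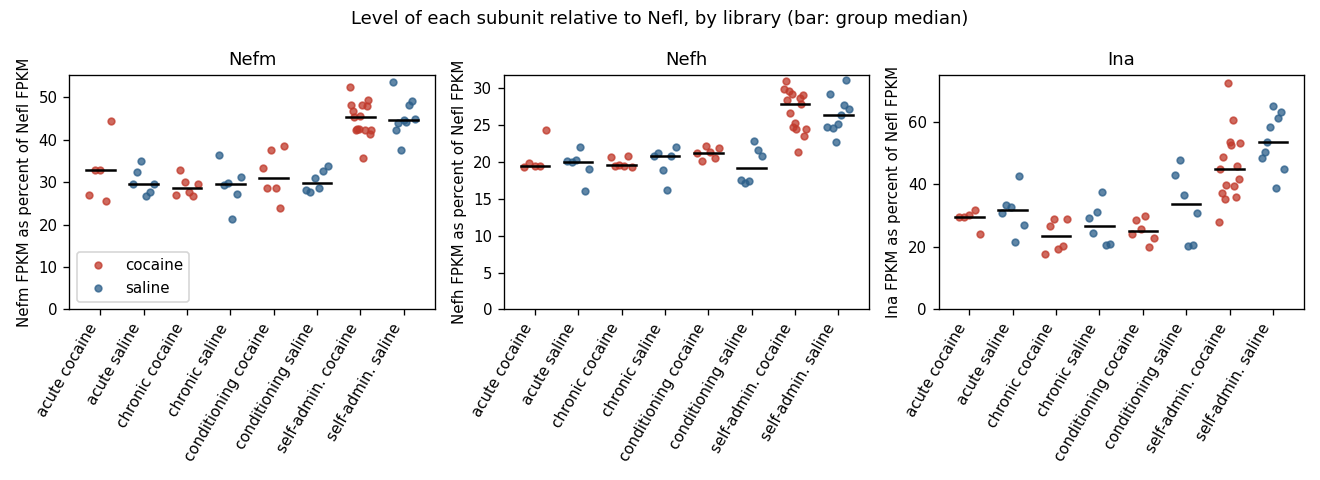
Level of Nefm, Nefh and Ina as a percent of the Nefl level in the same library, cocaine (red) left of saline (blue) by paradigm, with the group median as a bar and axes starting at 0. The Nefm and Nefh ratios sit higher in the self-administration libraries (means of 45.1% and 26.7%) than in the injected ones (30.4% and 20.05%).

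Library by library, Nefl, Nefm, Nefh and Ina moved as a unit, and Prph did not always follow. The relations were computed on log2(FPKM + 1) after removal of group means, separately in the 35 injected and the 24 self-administration libraries, with 20 relations between members in all and two-sided permutation tests adjusted over them. Libraries share dissection and processing, so these relations describe covariation and nothing about control.

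In injected libraries Nefl and Nefh had r = 0.992 (rho = 0.990), Nefl and Nefm r = 0.931 (rho = 0.913) and Nefm and Nefh r = 0.952 (rho = 0.923). Ina followed with r of 0.896, 0.891 and 0.898 to Nefl, Nefm and Nefh (rho of 0.889, 0.898 and 0.895). Each of these had a permutation p of 1e-05 for r and for rho, the smallest that the resampling can give, and 1.67e-05 adjusted. Without the 2 libraries farthest from the median r stayed between 0.894 and 0.990. In self-administration the same 6 relations had r from 0.922 to 0.978 and rho from 0.889 to 0.970 with the same p, and r from 0.860 to 0.960 without the 2 farthest libraries.

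Prph was related to the other genes in the injected libraries only loosely, with r = 0.650 to Nefl (rho = 0.669, permutation p = 6e-05 and 9e-05, adjusted 9.23e-05 and 0.000129), 0.633 to Nefh, 0.522 to Ina and 0.495 to Nefm (rho of 0.666, 0.539 and 0.507, adjusted p from 0.000123 to 0.00551). In self-administration its r to Nefl was -0.362 and its rho 0.029 (permutation p = 0.132 and 0.897, adjusted 0.147 and 0.954), and the r to Nefm, Nefh and Ina ran from -0.377 to -0.319. These negative values rest on the extreme libraries, since without the 2 farthest ones r was 0.223 to 0.243.

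**Figure D4:**
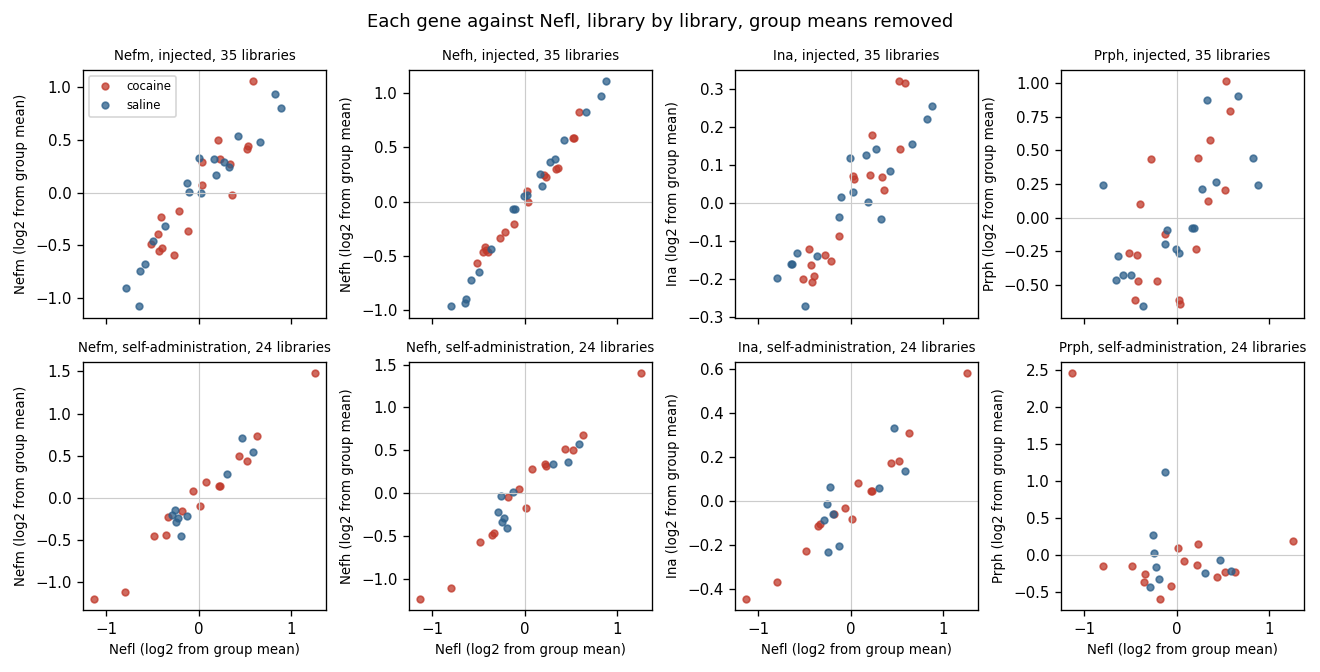
Nefm, Nefh, Ina and Prph against Nefl, one point per library, as log2 distance from the group mean, for injected libraries (upper panels) and self-administration libraries (lower panels), cocaine in red and saline in blue. Nefm, Nefh and Ina follow Nefl closely (r from 0.896 to 0.992 in the injected libraries), while in self-administration Prph has a single library far above the rest at the lowest Nefl.

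That library was self-administration cocaine 6. It held 11.5 FPKM of Prph, against 0.506 to 1.58 in the other 14 cocaine libraries. Its Nefl, Nefm, Nefh and Ina were the lowest of the group at 109.2, 46.4, 26.9 and 78.9 FPKM. It also had the highest Hdc, the enzyme that makes histamine in neurons of the posterior hypothalamus, at 43.3 against 0.11 to 2.12 FPKM, and the highest Foxb1, a transcription factor of the mammillary region, at 9.76 against 0.643 to 2.31 FPKM.

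Self-administration saline 4 had the highest Prph of its group, 3.58 against 0.560 to 1.55 FPKM. It likewise had the highest Hdc, 8.61 against 0.336 to 1.75, and the highest Foxb1, 5.28 against 0.947 to 1.77 FPKM. Pmch, a gene of the lateral hypothalamus, was highest in neither library. It stood at 58.8 FPKM in saline 4, where another library held 196.8, and at 33.7 in cocaine 6, where another held 61.8. Without cocaine library 6 the self-administration difference of Prph was -0.069, against 0.11 ± 0.25 with it. Across the self-administration libraries Foxb1, with r = 0.892, and Hdc, with 0.879, were among the 5 genes most like Prph, with Vgll3, Ogn and Ppp1r1a. These r include both libraries just described, where Prph, Foxb1 and Hdc were each highest in their group. They were not computed again without those libraries, so they are no separate observation. In the injected libraries Foxb1 and Hdc had r of -0.279 and 0.068 to Prph. The part of tissue from the neighbouring hypothalamus was not tested.

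Self-administration cocaine 0 lay at the other end, with the highest Nefl, Nefm, Nefh and Ina of its group at 575.2, 301.4, 171.5 and 161.3 FPKM, where the next highest libraries had 373.7, 179.6, 103.8 and 133.7. Spp1, at 180.8 against at most 84 FPKM, and Pvalb, at 368.3 against at most 210.5, were also highest there, while Th, at 225.5 FPKM, ranked 10 of 15. Without this library the self-administration difference of Nefl was 0.346.

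The genes whose pattern was most like each member in the injected libraries came from a fixed rule of the 5 highest r. For Nefl they were Nefh, Vwa7 (0.981), Spp1 (0.975), Rab37 (0.973) and Htr1d (0.970), a serotonin receptor. Nefm was nearest to Pvalb (0.968), Nexn (0.956), Kctd9 (0.953), Nefh and Gm10684, and Nefh to Nefl, Spp1 (0.984), Kcng4 (0.977), Vwa7 and Sgpp2. In the 24 self-administration libraries, which this choice did not use, Vwa7 had r = 0.941 to Nefl, Spp1 0.838, Rab37 0.885 and Htr1d 0.908, Pvalb had 0.888 to Nefm, and Kcng4, a modulatory potassium channel subunit, 0.956 to Nefh.

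Ina was nearest to Cdr2l (0.926), Ank1 (0.918), Esyt1, Plekha6 and Cables2, of which Cables2 had 0.955 and Cdr2l 0.645 in self-administration. Prph was nearest to Reep1 (0.888), Crhr1 (0.887), Sfxn3, Kank4 and Anxa7, and 4 of these 5 were between -0.307 and 0.283 in self-administration, with Anxa7 at 0.616. Of 13172 other genes, 50 had r above 0.9 to Nefl, 36 to Nefm, 50 to Nefh, 18 to Ina and 0 to Prph in injected libraries. In self-administration the counts were 49, 37, 43, 10 and 0 of 13129. The median gene had r within 0.033 of 0 to each of the 5.

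Spp1 and Pvalb, the leading neighbours that have a known place in large, fast-firing neurons, can be set beside the filaments by group. Spp1 had a median of 48.7 FPKM in acute cocaine, against 43.9 in acute saline, and 91.8 in chronic cocaine, against 69.4 in chronic saline. It had 87.5 in conditioning cocaine, against 37.4 in conditioning saline, and 44.1 in self-administration cocaine, against 24.8 in self-administration saline. Pvalb had a median of 110.2 FPKM in acute cocaine, against 127.6 in acute saline, and 190.7 in chronic cocaine, against 166.9 in chronic saline. In conditioning it had 194.8 in cocaine, against 125.1 in saline, and in self-administration 127.7 in cocaine, against 85.4 in saline. The average difference of Spp1 between cocaine and saline was 0.67 ± 0.20 (adjusted p = 0.247 by limma), and that of Pvalb 0.44 ± 0.16 (0.250). Neither passed.

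Across 18 lists of genes for cell types and axonal structures, 180 relations of list level with a member were computed, each with a permutation p adjusted over them. The list of genes high in large, fast-firing projection neurons, which holds Pvalb and Spp1, had the highest r to Nefm, 0.953 in injected libraries (rho = 0.940), and to Nefl, 0.974 in self-administration (rho = 0.952). Over Nefl, Nefm, Nefh and Ina its r was 0.893 to 0.953 in injected and 0.912 to 0.974 in self-administration libraries (permutation p = 1e-05 for each, adjusted 8.57e-05). Without the 2 farthest libraries r was 0.884 to 0.941 and 0.850 to 0.954. The list was chosen with earlier results of these data known, and it holds genes named above as nearest neighbours. Its r and p are therefore a description and no independent evidence.

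Axonal transport and the specialised axon membrane went with the same 4 genes. The kinesin and dynein list had r of 0.854 to 0.931 in injected and 0.692 to 0.743 in self-administration libraries (rho of 0.867 to 0.916 and 0.715 to 0.754), and the list for the node of Ranvier and axon initial segment 0.853 to 0.938 and 0.591 to 0.643 (rho of 0.845 to 0.933 and 0.528 to 0.633). All passed after adjustment over the 180 (permutation p adjusted to at most 0.029). Without the 2 farthest libraries the self-administration r was 0.644 to 0.677 for the kinesin and dynein list. For the node and initial segment list it was 0.441 to 0.552. Linkers, kinases and turnover factors of the filaments had r of 0.742 to 0.838 in injected libraries and 0.176 to 0.285 in self-administration, where none passed.

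The dopamine neuron list had no detectable relation to the 4 genes, with r from -0.180 to 0.039 in injected and from -0.133 to 0.044 in self-administration libraries (permutation p from 0.352 to 1). Genes of most neurons had r from 0.008 to 0.10 in the injected libraries, and from 0.488 to 0.571 in self-administration, where r was 0.283 to 0.345 without the 2 farthest libraries. The oligodendrocyte and myelin list had r of 0.508 to 0.526 in injected and 0.518 to 0.601 in self-administration libraries, and the microglia list -0.589 to -0.519 in injected and -0.189 to -0.140 in self-administration libraries, where none of the 4 passed (adjusted permutation p from 0.526 to 0.65). Transcription factors of neurons that border the area had r of 0.721 to 0.788 in self-administration (rho of 0.537 to 0.689) and 0.348 to 0.456 in injected libraries. In the injected libraries no r of this list passed (adjusted permutation p from 0.0606 to 0.161), and of the rho only that of Nefm (0.0452). Without the 2 farthest libraries its r was 0.597 to 0.721 in self-administration and 0.151 to 0.327 in injected libraries. The part of dissection in these relations was not tested.

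The lists related to Prph overlapped in part with those of the other 4 genes. In injected libraries its r was 0.771 to the axonal tubulin and microtubule-associated list (rho = 0.831, permutation p = 1e-05), 0.541 to the dopamine list (rho = 0.565, adjusted permutation p = 0.0114) and -0.679 to the hypothalamus and mammillary list (rho = -0.695, adjusted permutation p = 0.000704). Prph also had r of 0.607 to the GABA neuron list and 0.547 to the linker and turnover list (adjusted permutation p = 0.00405 and 0.00818). To genes of most neurons it had 0.525, and to the kinesin and dynein list 0.506 (adjusted permutation p = 0.00918 and 0.0213). None of these further lists passed for Prph in self-administration. In self-administration its r to the tubulin list was -0.281, its rho 0.408 (adjusted permutation p = 0.27 and 0.11) and r without the 2 farthest libraries 0.494, so the sign rests on those libraries. To the dopamine list r was 0.263 and rho 0.637 (adjusted permutation p = 0.317 and 0.00774), of which only rho passed. To the hypothalamus and mammillary list r was 0.114 and rho -0.083, and neither passed. In injected libraries the tubulin list also had r of 0.438 to 0.589 to Nefl, Nefm, Nefh and Ina (adjusted permutation p from 0.0018 to 0.0334), and the hypothalamus and mammillary list had -0.504 to Nefl, -0.501 to Nefh, -0.363 to Nefm and -0.253 to Ina (adjusted permutation p = 0.0112, 0.0135, 0.0885 and 0.222). In self-administration the tubulin list had r of 0.326 to 0.375 to these 4 genes, and none passed. The hypothalamus and mammillary list had r of -0.439 to -0.317 to them there, and -0.621 to -0.508 without the 2 farthest libraries. Its r passed for Nefh and Ina (adjusted permutation p = 0.0319 and 0.0457). Its rho passed for Nefm, Nefh and Ina (-0.566, -0.517 and -0.593, adjusted permutation p = 0.0177, 0.024 and 0.0115). The differences between Prph and the other genes in these relations were not tested. To the cholinergic and motor neuron list the r of Prph was 0.425 (rho = 0.480) in injected and 0.587 (rho = 0.566) in self-administration libraries (adjusted permutation p = 0.0474 and 0.00876), falling to 0.315 and 0.446 without the 2 farthest libraries. Of that list's 10 genes 3 or 4 passed the level filter, depending on the comparison.

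**Figure D5:**
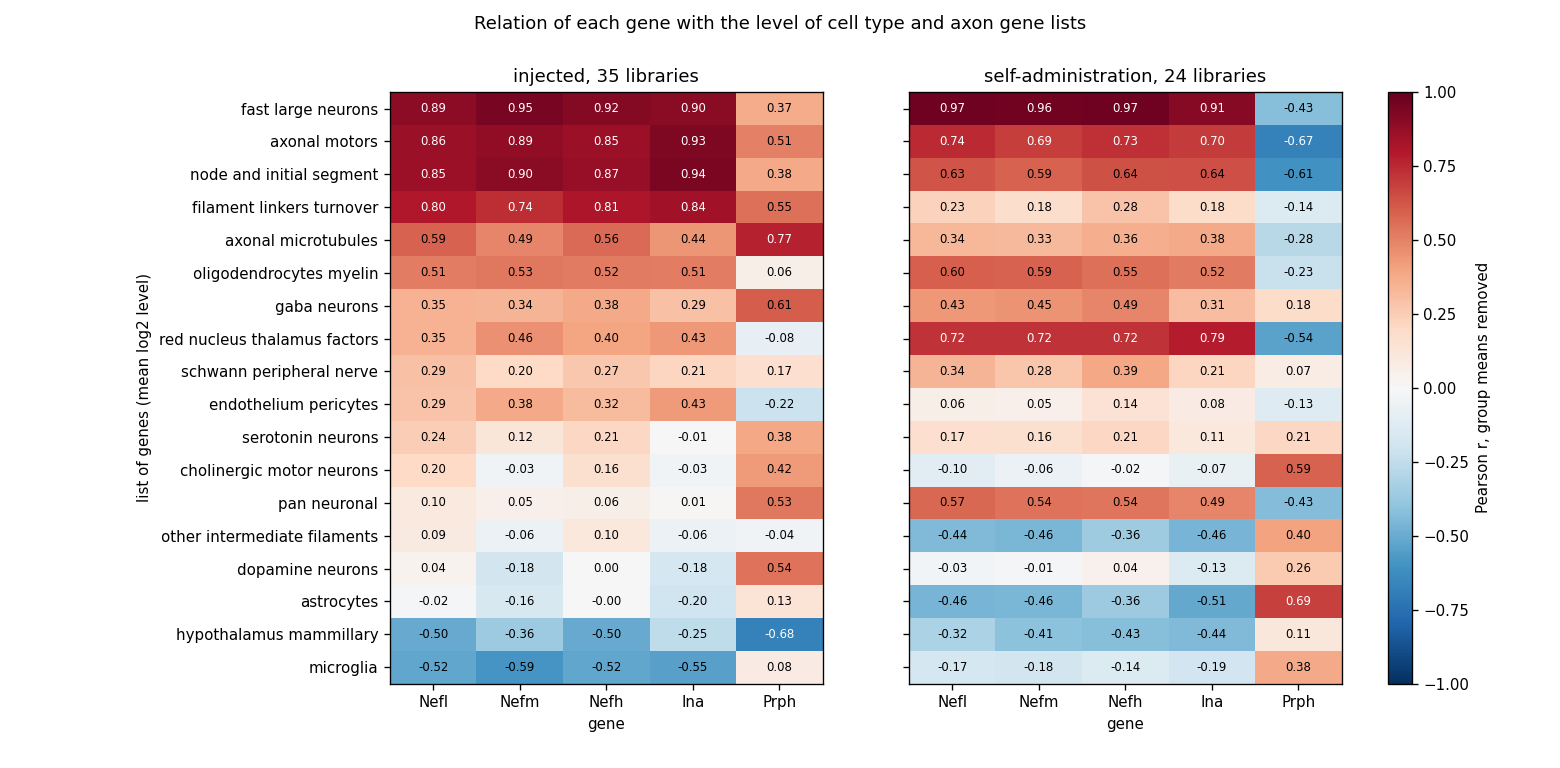
Pearson r between each gene and the mean log2 level of 18 gene lists, group means removed, for 35 injected libraries (left) and 24 self-administration libraries (right), red for positive and blue for negative values. For Nefl, Nefm, Nefh and Ina the fast large neuron list has r of 0.89 to 0.97 and is the highest row, except for Ina in the injected libraries, where the node and initial segment list (0.94) and the axonal motors list (0.93) are above it.

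Related genes of the cytoskeleton had median differences near 0 between cocaine and saline. On average over the paradigms the 5 filament genes had a median difference of 0.362, against -0.0005 for all genes. Of 9 tested intermediate filament genes of other cells and of the nuclear lamina, 5 were above 0 and 4 below, with a median of 0.006. Gfap, the filament of astrocytes, was at -0.31 ± 0.22 (limma adjusted p = 0.566) and Lmnb1, a lamin, at -0.06 ± 0.03. Of the 12 kinesin and dynein genes 8 were above 0 and 4 below, with a median of 0.023. Of the 17 tubulin and microtubule-associated genes 12 were above 0 and 5 below, with a median of 0.034. Of the 13 node and initial segment genes 10 were above 0 and 3 below, with a median of 0.039. None of these genes was called. The medians were not scaled to the spread between libraries, which was wide for most of the filament genes.

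Of the 16 linkers, kinases and turnover factors 9 were above 0 and 7 below, with a median of 0.006 and 0 called. Capn1, a calcium-activated protease that cuts neurofilaments, had the smallest unadjusted p at 0.24 ± 0.07 (p = 0.00153, limma adjusted p = 0.247). Cdk5r1, the activator of the tail kinase Cdk5, stood at -0.10 ± 0.03 (limma adjusted p = 0.247) and Cdk5 itself at 0.05 ± 0.02 (0.365). All 9 genes of the fast-firing list were above 0 on average, with a median of 0.188 and 0 called. Scn4b, a sodium channel subunit, was at 0.31 ± 0.15 and Syt2, a fast synaptic calcium sensor, at 0.26 ± 0.12.

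In the same average, 11 of 12 dopamine neuron genes were below 0 with a median of -0.056, 7 of 8 hypothalamus and mammillary genes were below 0 with a median of -0.116 and 9 of 10 oligodendrocyte genes above 0 with a median of 0.075, and none of them was called. In conditioning, the paradigm with the widest Nefl difference, 8 of 9 fast-firing genes were above 0 (median 0.497), all 12 dopamine genes below (median -0.071), all 10 oligodendrocyte genes above (median 0.109) and all 8 microglia genes below (median -0.167). The summed fast-firing list reached 999.4 to 1495 FPKM in conditioning cocaine, against 632.7 to 1219 FPKM in conditioning saline. Its part in the filament differences was not tested.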

How the data were processed

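The values are FPKM as the authors deposited them, in a single table. Bowtie, Cuffnorm and mm10 are named per the submitters' processing notes, and their versions, annotation and scaling are not given in the sources. Per the labels' protocols, RNA came from an RNeasy kit and libraries from a TruSeq RNA kit. Columns were mapped to groups by name. FPKM rests on assumed transcript lengths and on the other genes of a library, so isoform use, fragment length and GC bias can move it.

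Genes that averaged 1 FPKM or more in a fit were tested on log2(FPKM + 1) with limma 3.58.1 in R 4.3.3 (trend and robust empirical Bayes, two-sided, Benjamini-Hochberg over all genes tested, threshold 0.05), and all 5 genes passed that filter in every fit. Each paradigm was fitted alone, and the average and the differences between paradigms over all 8 groups. Relations used 100000 permutations of library residuals. The fits were tested on simulated data. Alternatives were pseudocount, level filter, scaling, library weights, other empirical Bayes options, one fit of all groups and leaving out libraries. The 5 genes and all lists were chosen with earlier results of these data known. Of each list, up to 4 genes with the smallest p were eligible to be named. Slc17a6, Kcna1 and Vamp1 were named for their group means instead. Libraries described singly were chosen after their values were seen.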

Additional observations from a re-analysis of the deposited data

Results flagged for a closer look

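In 5 of 35 pairs of gene and group of 4 to 10 libraries, the highest library stood far from the others by Dixon's ratio of gap to range. The rate of about 1 in 20 pairs flagged by chance holds for normally distributed values. The ratio was taken on FPKM without logs, and whether these values follow a normal distribution was not tested. The 5 of 35 pairs are therefore not compared with that rate. In acute cocaine, library 4 held 322.2 FPKM of Nefm where the next library had 162.8, and 176 FPKM of Nefh where the next had 98.1. Prph was at 6.02 FPKM in chronic cocaine library 3, where the next had 3.01, at 4.09 FPKM in acute saline library 0, where the next had 1.58, and at 3.58 FPKM in self-administration saline library 4, where the next had 1.55. Acute saline library 0 and chronic cocaine library 3 were also highest in their groups for Nefl, at 698.6 and 953.2 FPKM, and for Th, at 561.7 and 691.1 FPKM. The pairs are not independent, since the genes move together, and the cause was not tested.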

How the results depend on the processing

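No call of a filament gene between cocaine and saline changed under any alternative, and the calls of Nefl, Nefm, Nefh and Ina between self-administration and other saline held in all of them. The F test over the saline groups called 3 of the 5 genes in 9 of the fits that left out 1 library and 5 with library quality weights, and 4 in the rest. Prph, not called between self-administration and other saline, passed with a pseudocount of 0.1 (-0.689, adjusted p = 0.0303), with library quality weights (-0.643, 0.00213), without trend and robust options (adjusted p = 0.0491) and without 1 of 7 libraries (-0.555 without self-administration saline 4). Library quality weights reversed the acute values of Nefl (-0.022), Nefm (-0.037), Nefh (-0.024) and Ina (-0.033), the chronic values of Nefh (-0.025) and Prph (-0.079) and the conditioning value of Prph (0.081). Leaving out 1 library, acute values ran from -0.017 to 0.259 for Nefl, -0.05 to 0.363 for Nefm, -0.017 to 0.355 for Nefh and -0.035 to 0.082 for Ina, and Prph from -0.168 to 0.07 in conditioning and -0.069 to 0.248 in self-administration. Of all genes, library weights called 169 (conditioning saline against home-cage saline), 44 (chronic against acute saline), 41 (average effect), 1 (conditioning) and 1 (self-administration), where Nefl had its lowest adjusted p, 0.0629. For the same saline contrast of conditioning a pseudocount of 0.1 called 7 and a mean of at least 5 FPKM 1, and leaving out a library 2 to 9. The average effect had 0 with at least 5 FPKM, 2 with upper-quartile scaling, 2 without self-administration (an alternative chosen after seeing the data) and 1 to 3 without a library. Upper-quartile scaling called 1 gene in conditioning, and 1 fit of all 8 groups called 1 in chronic and 2 in self-administration. Leaving out a library gave 0 to 1 genes in chronic and 0 to 2 for differences between paradigms. The cause was not tested. No paired analysis was possible because the columns carry numbers that match no replicate number of the labels.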
